A study of Mus musculus with 30 samples.

Results

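The Frizzled receptors were the 10 genes Fzd1 to Fzd10, taken by symbol from the count tables of mouse aorta and kidney. Each table listed 41128 genes, and all 10 Frizzled genes were in both. Low counts kept 2 of them, Fzd9 and Fzd10, out of the tests in aorta, so that 8 of 10 were tested there among 14796 genes. In kidney 9 of 10 were tested among 15034 genes, with Fzd10 below the filter.

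Frizzled proteins are receptors in the plasma membrane that bind secreted Wnt glycoproteins through a cysteine-rich domain outside the cell. Together with the co-receptors Lrp5 and Lrp6 they recruit Dishevelled and stop the destruction of beta-catenin, which then acts with TCF/LEF factors on target genes, and without these co-receptors they pass signals to the cytoskeleton and to planar cell polarity. Wnt signalling is known for its part in smooth muscle growth and arterial remodelling, and in kidney for nephron formation and for repair of the tubules. By sequence the family falls into the close relatives Fzd1, Fzd2 and Fzd7, the pair Fzd5 and Fzd8, the group of Fzd4, Fzd9 and Fzd10, and the pair Fzd3 and Fzd6.

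Most Frizzled genes are compact, and 6 of the 10 (Fzd1, Fzd2, Fzd7, Fzd8, Fzd9 and Fzd10) had a single exon in the GENCODE annotation of GRCm38. Fzd1 lay on the minus strand of chr5:4753839-4758035, Fzd2 on the plus strand of chr11:102604396-102608058 and Fzd7 on the plus strand of chr1:59482424-59486955. Fzd8 lay on the plus strand of chr18:9212163-9218136, Fzd9 on the minus strand of chr5:135248938-135251230 and Fzd10 on the plus strand of chr5:128600844-128604093. Fzd4 (chr7:89404355-89413134, plus strand) and Fzd5 (chr1:64730558-64737751, minus strand) had 2 exons each, and Fzd3 (chr14:65192449-65262463, minus strand) and Fzd6 (chr15:39006034-39038188, plus strand) had more. Fzd3 overlapped the annotated genes Gm27263 and Gm9086, Fzd5 overlapped Gm38058 and Fzd6 overlapped Gm26704. The strand setting of the counting was not given in the sources used here, so reads of these partners on the opposite strand (Gm9086, Gm38058 and Gm26704) cannot be told apart from those of the Frizzled gene.

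All mice were males, with the strain background labelled C57Bl6J, although the breeding description names C57BL/6 and C57BL/6N parents. KO mice carried loxP-flanked Egfr alleles (Egfr flox/flox) and a tamoxifen-inducible Cre driven by the smooth muscle myosin heavy chain promoter (Smmhc-Cre), so that the deletion was aimed at smooth muscle and not at the other cells of either tissue, while in WT mice that Cre was present but Egfr had no loxP sites. Both genotypes received tamoxifen, and from 6 weeks of age both were fed a high-fat diet (HFD) or a standard-fat diet (SFD) for 18 weeks. Aorta was represented by 3 WT-SFD, 4 WT-HFD, 3 KO-SFD and 4 KO-HFD libraries, and kidney by 4 libraries in each group. There were 3 mice that gave both tissues. Libraries are named by group and number (WT-SFD 1), numbered in order of deposition within a tissue, so that a number pairs no animals, and values of a group are given in that order. Total counts ran from 6403699 to 13052870 per aorta library (median 8998366) and from 16354880 to 28331314 per kidney library (median 19544128). Levels are given as FPM, counts per 1000000 after scaling of the libraries to each other (TMM), and levels of different genes are compared only as FPM per kb of exon. The aorta and kidney libraries were made and sequenced at different sites, so tissue and site cannot be told apart and no test was made between tissues.

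Promoter sequence from RefSeq (GRCm38.p6) was used for 6 members, Fzd1, Fzd4, Fzd5, Fzd7, Fzd9 and Fzd10. The 250 bases before the RefSeq start of the most abundant Frizzled gene of each tissue are shown, since the diet comparisons below turn on these close relatives: Fzd1 at chr5:4758217-4758466 (minus strand) and Fzd7 at chr1:59481897-59482146 (plus strand), 5′ to 3′, with matches to the searched motifs in capitals. The RefSeq starts of both lie upstream of the GENCODE gene bounds given above, whereas the windows of Fzd9 and Fzd10, which are not shown, lie largely inside those bounds.
Fzd1: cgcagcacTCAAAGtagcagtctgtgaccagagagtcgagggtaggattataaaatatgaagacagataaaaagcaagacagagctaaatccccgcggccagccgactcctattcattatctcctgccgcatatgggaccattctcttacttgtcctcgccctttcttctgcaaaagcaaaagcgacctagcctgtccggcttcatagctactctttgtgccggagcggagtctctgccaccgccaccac
Fzd7: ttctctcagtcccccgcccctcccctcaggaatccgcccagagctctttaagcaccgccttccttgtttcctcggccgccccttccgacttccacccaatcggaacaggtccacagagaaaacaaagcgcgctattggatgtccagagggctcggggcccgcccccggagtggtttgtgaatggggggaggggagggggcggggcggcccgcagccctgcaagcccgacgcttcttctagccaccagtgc
The searched motifs were CTTTGA, the core bound by TCF/LEF factors, GCCNNNGGC, bound by AP-2 factors, and the CArG box, bound by serum response factor, on both strands of 300 bases that reach 50 bases past the start. The capitals in the Fzd1 sequence mark CTTTGA read on the other strand, and the Fzd7 sequence held none of the motifs. CTTTGA was present in 1 of the 6 Frizzled promoters (Fzd1) against 16% of 32851 promoters of this length, GCCNNNGGC in 3 (Fzd4, Fzd5 and Fzd10) against 16.6%, and the CArG box in 0 against 1.63%. A match describes letters in the window and not a bound site, and the absence of a match says only that these letters are not in this window.

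Egfr, the deleted gene, was lower in every KO aorta than in every WT aorta except that the KO-HFD libraries 2 and 3 exceeded the lowest WT-SFD library. WT aortae held 46.68, 39.48 and 54.29 FPM on SFD and 65.08, 56.98, 51.19 and 57.03 FPM on HFD, and KO aortae held 26.79, 35.52 and 28.01 FPM on SFD and 27.51, 40.57, 39.68 and 33.38 FPM on HFD. Averaged over diets the log2 fold change was -0.67 (SE 0.109, adjusted p = 0.0132, edgeR quasi-likelihood test with Benjamini-Hochberg adjustment over all genes). In kidney the same difference was -0.00 (adjusted p = 0.998, edgeR). WT kidneys held 39.14 to 58.44 FPM on SFD and 36.94 to 56.56 FPM on HFD. KO kidneys held 46.72 to 60.79 FPM on SFD and 40.45 to 45.51 FPM on HFD.

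The labelled tissues carried their own markers. The smooth muscle markers Acta2, Myh11, Smtn and Lmod1 summed to between 9791 and 17670 FPM in aorta, while Tagln and Cnn1 were listed at 0, as no gene of chromosomes 9, X, Y and MT had a count in any library, and genes there were not analysed here. The 6 proximal tubule markers summed to between 11240 and 20380 FPM in kidney, with the phosphate transporter gene Slc34a1 the most abundant in every library.

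Before any diet comparison, 4 aortae stood apart. The 20 adipocyte markers summed to 8074 and 6354 FPM in WT-SFD 1 and 2 and to 5225 and 1928 FPM in KO-SFD 1 and 2, against 672.0 to 941.7 FPM in the other 10 aortae. All 4 were SFD libraries, and only 1 library per genotype on SFD, WT-SFD 3 and KO-SFD 3, was poor in these transcripts. The most abundant marker was Lpl (lipoprotein lipase) at 1031 to 1512 FPM in WT-SFD 1, WT-SFD 2 and KO-SFD 1, whereas in the remaining 11 aortae it was Plin4, a lipid droplet protein, at 318.2 to 439.8 FPM. All 20 markers had counts in the 4 rich libraries, and the only markers at 0 elsewhere were Elovl3 in 4 libraries and Lep in 1 of these. In the diet comparison averaged over genotypes all 20 markers lay below 0 on HFD, with a median log2 fold change of -3.37. Of these, 17 were called lower (adjusted p under 0.05, edgeR), against 3.58% of all genes. Most Frizzled differences in aorta are therefore also given without these 4 libraries, which leaves 1 library in each SFD group.

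The family had a different order in aorta and kidney. In aorta Fzd7 led with a mean of 26.2 FPM per kb (SD 3.81, n = 14), which was 29.0% of the summed Frizzled level (26.1% to 33.3% in single libraries), followed by its relatives Fzd1 with 22.3% and Fzd2 with 20.2%. Fzd4, the receptor of norrin in vessels, held 12.7%, Fzd6 5.32%, Fzd5 5.29% and Fzd8 4.40%, and Fzd9 (0.357%), Fzd3 (0.339%) and Fzd10 (0.0290%) were lowest. Fzd7 exceeded Fzd1 in 14 of 14 libraries, Fzd4 exceeded Fzd6 in 14 and Fzd8 exceeded Fzd9 in 14, so these steps were larger than the spread. The neighbours Fzd1 and Fzd2 (Fzd1 higher in 11 libraries), Fzd2 and Fzd4 (12), Fzd6 and Fzd5 (8), Fzd5 and Fzd8 (10) and Fzd9 and Fzd3 (8) changed places between libraries. In kidney Fzd1 alone held 47.6% of the family (42.6% to 52.3%) at 29.6 FPM per kb (SD 4.11, n = 16) and exceeded the next member, Fzd4 with 12.7%, in 16 of 16 libraries. Fzd7 held 11.4%, Fzd8 9.94%, Fzd6 7.78%, Fzd5 5.68% and Fzd2 4.30% in kidney, and Fzd9 (0.420%), Fzd3 (0.165%) and Fzd10 (0.0779%) were again lowest. Fzd4 exceeded Fzd7 in 11 of 16 kidneys, and every other step down the order to Fzd10 held in at least 13. The order in both tissues was the same when the longest transcript replaced the union of exons.

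**Figure D1:**
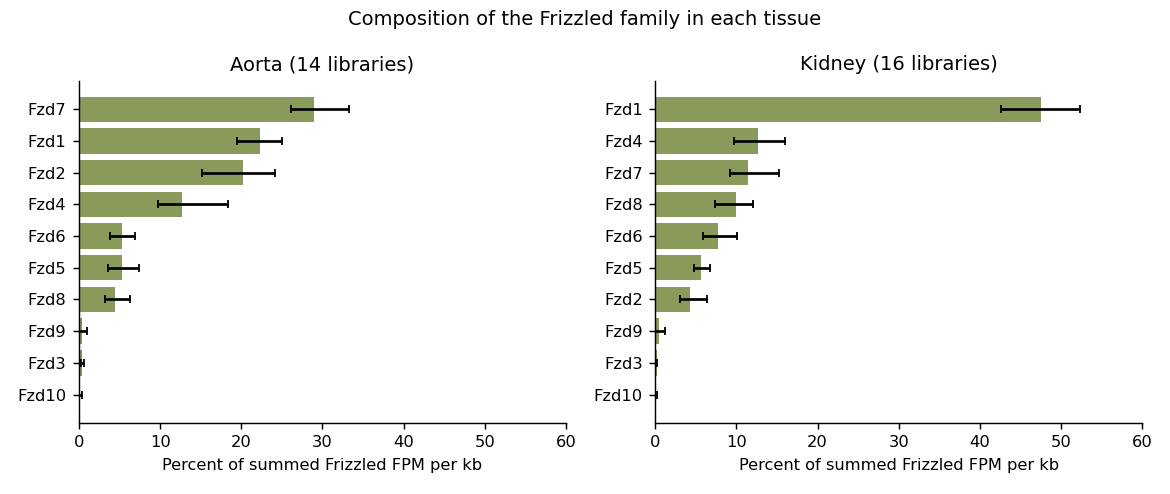
Share of each Frizzled gene in the summed Frizzled level (percent of FPM per kb of exon) in 14 aorta and 16 kidney libraries; bars are means over libraries and the lines run from the lowest to the highest library. Fzd7 led in aorta with 29.0% and Fzd1 in kidney with 47.6%.

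The diet comparison in WT aorta addressed whether HFD altered the receptors where smooth muscle Egfr was intact. By edgeR 0 of the 8 tested members were called at an adjusted p under 0.05 and neither was any of the 14796 genes (0% called), the smallest adjusted p of any gene being 0.0674. DESeq2 called 2 members, Fzd1 and Fzd2, and 4.50% of all genes. On the log2 scale 6 of 8 members were above 0, against 48.3% of all genes, and 5 of 8 (Fzd1, Fzd2, Fzd6, Fzd7 and Fzd8) had an unadjusted p under 0.05 with a higher level on HFD, against 5.68% of all genes. The median log2 fold change was 0.34 for the members and -0.01 for all genes tested. Both the counts and the median include the WT-SFD libraries rich in adipocyte transcripts. Without the 4 rich libraries Fzd1, Fzd2 and Fzd7 had 0.07, 0.21 and 0.14, and Fzd6 and Fzd8 had 0.65 and 0.50. Fzd3, Fzd4 and Fzd5 then lay below 0.

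Fzd2, a receptor of Wnt5a that signals mostly without beta-catenin, had the largest difference. Its level was 37.53, 46.15 and 70.89 FPM in WT-SFD 1, 2 and 3, and 75.18, 71.35, 91.12 and 89.38 FPM in the WT-HFD libraries. The groups did not overlap, but the SFD library poor in adipocyte transcripts, WT-SFD 3, lay next to the lowest HFD library. The log2 fold change was 0.67 (SE 0.200, adjusted p = 0.0943, edgeR). With the mean of the adipocyte markers as a covariate it was 0.37, and without the 4 libraries rich in adipocyte transcripts it was 0.21.

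Fzd1 gave 55.00, 60.81 and 94.86 FPM in WT-SFD and 103.9, 95.47, 102.4 and 94.50 FPM in WT-HFD aortae. The value of 94.86, from WT-SFD 3, was inside the HFD range and the other SFD libraries were far below it. The log2 fold change of 0.50 (SE 0.151, adjusted p = 0.0976, edgeR) was 0.26 with the covariate and 0.07 without the 4 libraries. Fzd7, the most abundant receptor, gave 87.62, 106.3 and 115.4 FPM in WT-SFD and 124.9, 121.5, 136.9 and 125.1 FPM in WT-HFD aortae, a log2 fold change of 0.30 (SE 0.138, adjusted p = 0.281) with groups that did not overlap, which was 0.12 with the covariate and 0.14 without the 4 libraries. Leaving out WT-SFD 3 alone, which keeps only the 2 WT-SFD libraries rich in adipocyte transcripts, moved the other way: Fzd1 then stood at 0.78 (adjusted p = 5.5e-04) and Fzd2 at 0.97 (adjusted p = 0.00262), both past the threshold in edgeR.

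Fzd8, which pairs with Fzd5 in sequence, depended less on these libraries. It gave 16.79, 18.36 and 18.19 FPM in WT-SFD and 22.85, 29.65, 20.85 and 29.41 FPM in WT-HFD aortae, without overlap, and WT-SFD 3 lay with the other SFD libraries. The log2 fold change was 0.53 (SE 0.188, adjusted p = 0.157, edgeR), 0.45 with the covariate and 0.50 without the 4 libraries. Fzd6, a polarity receptor, gave 20.20, 23.59 and 17.04 FPM in WT-SFD and 31.93, 29.75, 24.50 and 19.95 FPM in WT-HFD aortae. These groups overlapped, with a log2 fold change of 0.39 (SE 0.172, adjusted p = 0.265) that stood at 0.55 with the covariate and 0.65 without the 4 libraries. In all, 3 of 8 members (Fzd2, Fzd7 and Fzd8) had WT-HFD libraries all above the WT-SFD libraries, against 4.43% of all genes tested. Fzd4 at -0.09 (adjusted p = 0.805) was -0.34 without the 4 libraries and Fzd5 (0.09, 22.97 to 39.17 FPM over both diets) and Fzd3 (-0.24) overlapped between diets and had -0.05 and -0.03 without them.

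**Figure D2:**
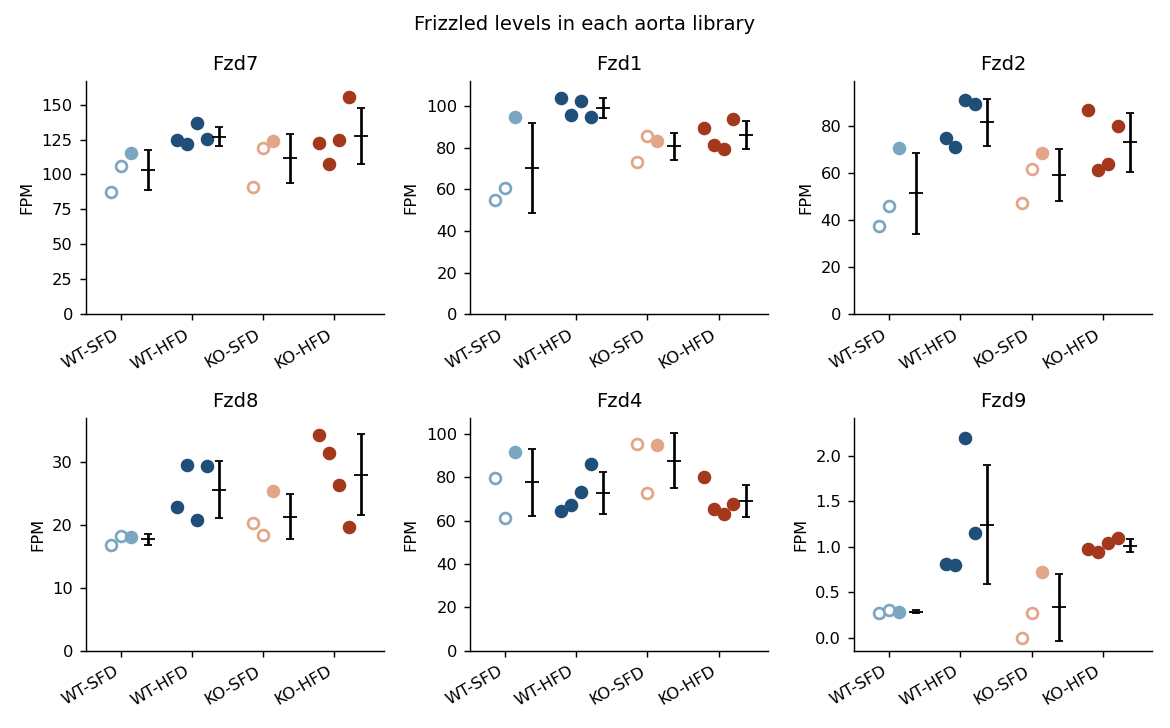
Level (FPM, from 0 apart from Fzd9) of 6 Frizzled genes in each of 14 aorta libraries by group; open circles are the 4 libraries rich in adipocyte transcripts and black marks give the mean and SD. For Fzd1 and Fzd2 the filled WT-SFD point, 94.86 and 70.89 FPM, sits near the HFD points, whereas for Fzd8 it sits with the open circles at 18.19 FPM.

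In KO aorta 0 of the 8 members were called between diets by edgeR, as was 0% of all genes, and 0 by DESeq2 against 0.0587% of all genes. At an unadjusted p under 0.05 there was 1 member, Fzd4, against 7.85% of all genes. Fzd1 gave 73.01, 85.53 and 83.12 FPM in KO-SFD and 89.50, 81.42, 79.19 and 93.84 FPM in KO-HFD aortae, a log2 fold change of 0.09 (adjusted p = 0.914, edgeR), and Fzd7 gave 91.22, 119.1 and 124.1 FPM in KO-SFD against 122.5, 107.3, 124.7 and 155.5 FPM in KO-HFD aortae, 0.19 (adjusted p = 0.768). Both overlapped between diets, and KO-SFD 1, rich in adipocyte transcripts, was the lowest KO library for each. Fzd2 (47.29, 61.99 and 68.71 FPM on SFD, 86.94, 61.42, 63.99 and 80.30 FPM on HFD) had 0.30 (adjusted p = 0.739) and Fzd8 (20.36, 18.39 and 25.38 FPM on SFD, 34.36, 31.56, 26.48 and 19.70 FPM on HFD) had 0.39 (adjusted p = 0.642). Fzd4 lay below 0: it gave 95.24, 72.85 and 94.63 FPM on SFD and 79.97, 65.46, 63.19 and 67.44 FPM on HFD, a log2 fold change of -0.34 (SE 0.148, unadjusted p = 0.0346, adjusted p = 0.596). That difference was -0.45 with the adipocyte covariate and -0.46 without the 4 libraries. Lower values under both settings were found for Fzd1, Fzd2, Fzd7, Fzd8 and Fzd5, and higher ones for Fzd6. Fzd1 had -0.15 with the covariate and 0.05 without the 4 libraries, Fzd2 0.00 and 0.09, Fzd7 0.03 and 0.04, and Fzd8 0.33 and 0.14. Fzd5 (0.05 in all libraries) had -0.07 and -0.05, and Fzd6 (0.17) had 0.31 and 0.44. Fzd3 was the one tested member whose KO-HFD libraries (3.668 to 4.320 FPM) all lay above the KO-SFD libraries (2.090 to 3.626 FPM), against 3.45% of all genes, at 0.43 (adjusted p = 0.768) and between 15 and 50 counts per library, with 0.41 under the covariate and 0.15 without the 4 libraries.

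The diet differences of WT and KO were compared directly by the interaction. It was -0.40 on the log2 scale for Fzd1 (unadjusted p = 0.0753, adjusted p = 0.998, edgeR) and -0.37 for Fzd2 (adjusted p = 0.998), 0 of 8 members and 0% of all genes were called, 0 of 8 members had an unadjusted p under 0.05 against 4.37% of all genes, and 0 were called by DESeq2 against 0.0135%. With the adipocyte covariate the interaction was -0.41 for Fzd1 and -0.36 for Fzd2, without the 4 libraries it was -0.02 and -0.12, and with 1 library left out in turn it ran from -0.68 to -0.26 and from -0.67 to -0.19. A difference between genotypes in the response to diet was thus not detectable for any Frizzled gene. Averaged over genotypes, Fzd8 had 0.46 (SE 0.132, adjusted p = 0.0687), Fzd2 0.48 (SE 0.141, adjusted p = 0.0714), Fzd1 0.30 (adjusted p = 0.141), Fzd6 0.28 (adjusted p = 0.227), Fzd7 0.25 (adjusted p = 0.182) and Fzd4 -0.22 (adjusted p = 0.277), and 0 of 8 members were called against 3.95% of all genes (0.365% higher and 3.58% lower on HFD). At an unadjusted p under 0.05 there were 5 members higher, against 7.12% of all genes, and DESeq2 called 2, Fzd2 and Fzd8, against 6.81%. Without the 4 libraries, from 1 SFD library per genotype, these values were 0.32 for Fzd8, 0.15 for Fzd2, 0.06 for Fzd1, 0.54 for Fzd6, 0.09 for Fzd7 and -0.40 for Fzd4. The count of 0 called by edgeR in all libraries rested on single SFD libraries: Fzd1 (0.44), Fzd2 (0.63) and Fzd8 (0.47) were called without WT-SFD 3, and Fzd2 (0.55) and Fzd8 (0.54) without KO-SFD 3. Fzd9 is left out of these counts, since it passed the filter there through the HFD libraries, in which it is high.

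**Figure D3:**
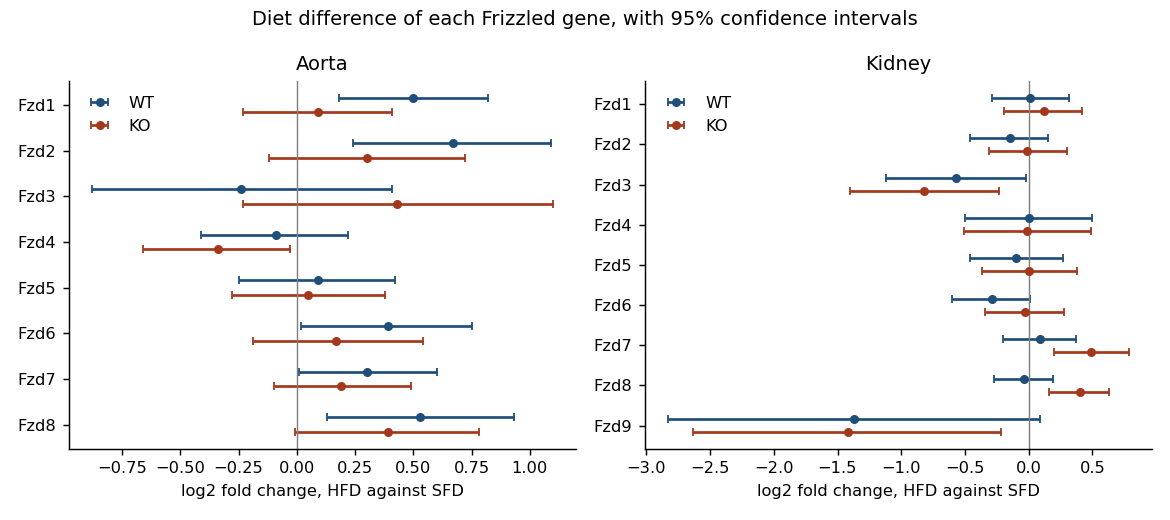
Log2 fold change of HFD against SFD with its 95% confidence interval for each tested Frizzled gene, in WT (blue) and KO (red) of both tissues. In aorta Fzd2 in WT lay highest at 0.67, and in kidney Fzd7 and Fzd8 had intervals above 0 in KO and across 0 in WT.

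Fzd9, too low for the test in aorta, was the one member whose SFD and HFD aortae did not overlap in FPM over both genotypes. It had 2, 3 and 2 counts in WT-SFD, 8, 8, 21 and 9 in WT-HFD, 0, 2 and 8 in KO-SFD and 8, 10, 13 and 8 in KO-HFD libraries. In FPM the SFD libraries ran from 0 to 0.7251 and the HFD libraries from 0.8040 to 2.189, and 0.0968% of the 26846 genes with a count showed this separation in this direction. The highest SFD library was KO-SFD 3, one of the 2 poor in adipocyte transcripts. The separation depends on the TMM scaling, whose factor was highest in KO-SFD 3 at 1.24. By library totals alone KO-SFD 3, with 8 counts of 8915275, would lie above WT-HFD 1 and 2, with 8 of 9460851 and 8 of 9517475. Fitted without the filter, the averaged log2 fold change was 1.72 (adjusted p = 0.0505, edgeR), and without the 4 libraries it was 1.26 (adjusted p = 0.846), where it passed the filter through the HFD libraries in which it is high. A count of 0 allows up to 3 counts, so single libraries at this depth fix the level of Fzd9 poorly. Fzd10 had 6 counts in WT-SFD 1, 1 in WT-HFD 2 and 0 in the other 12 aortae.

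No Frizzled gene was called between KO and WT aortae by edgeR or by DESeq2 (0.142% of all genes on SFD and 0.270% on HFD by DESeq2). On SFD 0 of 8 members were called against 0.0811% of all genes, and 0 had an unadjusted p under 0.05 against 6.54%, with log2 fold changes of KO against WT from -0.59 to 0.27. Fzd3 at -0.59 (3.081, 2.090 and 3.626 FPM in KO, 5.459, 4.102 and 3.898 FPM in WT, adjusted p = 0.783, edgeR) and Fzd8 at 0.27 (adjusted p = 0.813) were the tested members whose groups did not overlap, lower in KO for Fzd3 (4.37% of all genes) and higher for Fzd8 (4.20%). Of these 6 libraries 4 were rich in adipocyte transcripts, and without them Fzd3 had -0.10 and Fzd8 0.48, from 1 library in each group, while with the adipocyte covariate they had -0.59 and 0.24. On HFD 0 of 8 were called against 0.0811%, 0 had an unadjusted p under 0.05 against 5.35%, and the differences ran from -0.20 to 0.13. Fzd1 was the one tested member without overlap on HFD: the highest KO library had 93.84 FPM and the lowest WT library 94.50 FPM, a log2 fold change of -0.20 (SE 0.138, adjusted p = 0.999) against 2.03% of all genes lower in the same way, and -0.21 without the 4 libraries and -0.26 with the covariate.

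Over all 14 aortae Fzd1, Fzd2 and Fzd7 were the members that varied most closely with the smooth muscle and adipocyte markers. All 3 were lowest in WT-SFD 1, the library with the most adipocyte transcript. The smooth muscle marker mean was 10.57, 10.84 and 10.71 log2 CPM in WT-SFD 1, WT-SFD 2 and KO-SFD 1, against 11.07 or more in the other 11 aortae. Over all 14 aortae the correlation with the smooth muscle marker mean was 0.84 for Fzd1, 0.95 for Fzd2 and 0.91 for Fzd7, and with the adipocyte marker mean it was -0.82, -0.84 and -0.79. Within the 10 aortae poor in adipocyte transcripts, the correlation with the smooth muscle marker mean was 0.73 for Fzd2, 0.73 for Fzd7 and 0.16 for Fzd1, and with the adipocyte marker mean it was 0.12, -0.35 and 0.09. Fzd2 also had -0.63 with the fibroblast and -0.48 with the leucocyte marker mean there. Over all 14 aortae the fibroblast mean had 0.57 with Fzd1, 0.47 with Fzd2 and 0.50 with Fzd7. The Schwann cell marker mean had -0.65, -0.71 and -0.69 with these genes over 14 aortae, and 0.43, 0.19 and 0.15 within the 10. Other members varied with markers too. Fzd8 had 0.53 with the smooth muscle and -0.56 with the adipocyte mean over 14 aortae, and -0.04 and 0.26 within the 10. Fzd5 had -0.49 with the adipocyte mean over 14 aortae. Within the 10 it had -0.75 with the adipocyte, -0.78 with the Schwann cell and -0.53 with the endothelial mean. These points share library depth and dissection, and beyond the covariate and the libraries left out, the part of cell content in the diet differences was not tested. In bulk tissue, fewer cells of a type and less RNA per cell cannot be told apart. The endothelial markers summed to between 698.1 and 998.6 FPM over all aortae, but the mean of their log2 CPM, which weights low and abundant markers alike, correlated over 14 aortae with Fzd1 at -0.80, with Fzd2 at -0.85 and with Fzd7 at -0.78, and over the 10 poor in adipocyte transcripts at 0.03, -0.21 and -0.29. Of these markers Kdr, a receptor of vascular endothelial growth factor, fell on HFD averaged over genotypes (-2.75, adjusted p = 0.0168, edgeR) and had -0.06 without the 4 libraries. Emcn had -1.36 (adjusted p = 0.0622, edgeR) in all libraries, and Pecam1, Tie1, Tek, Vwf and Cldn5 lay between -0.20 and 0.06, none of them called.

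**Figure D4:**
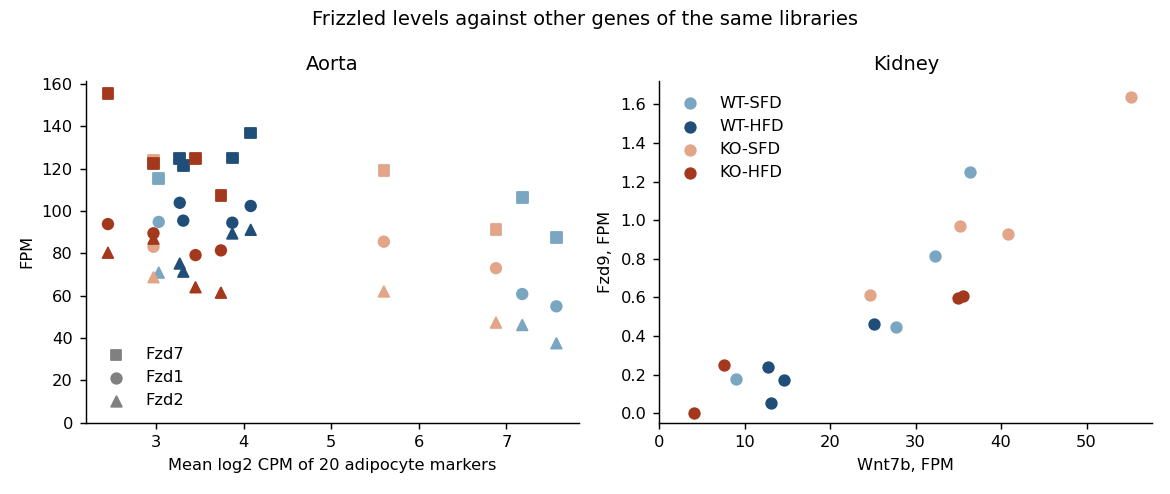
Left, level (FPM) of Fzd7 (squares), Fzd1 (circles) and Fzd2 (triangles) in each aorta library against the mean log2 CPM of 20 adipocyte markers; right, level of Fzd9 against Wnt7b (both FPM) in each kidney library. The 4 aortae right of 5 on the marker axis hold the lowest Fzd2 value, 37.53 FPM, and the kidney with no Fzd9 count has the lowest Wnt7b level, 4.115 FPM.

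The tested genes most like each member were named by their Pearson correlation of log2 CPM over all 14 aortae, which includes the 4 libraries that stood apart. Fzd7 was closest to Ppp1r12b (r = 0.927), a myosin phosphatase subunit, Mylk (0.924), myosin light chain kinase, and Jph2 (0.921), which joins membranes in muscle, and in the 10 other libraries these were 0.853, 0.760 and 0.819. Fzd2 was closest to Ctnna3 (0.952, an alpha-catenin), Add1 (0.943) and Ntn1 (0.936), and Fzd1 to Gm28720 (0.936), a long non-coding RNA, and also close to Fzd2 (0.917). Over the 10 libraries poor in adipocyte transcripts Fzd1 and Fzd2 had r = 0.66, Fzd2 and Fzd7 0.55 and Fzd1 and Fzd7 0.37, while Fzd4 and Fzd6 ran against each other (-0.88). Fzd4 was closest to Arhgap21 (0.877), Podn and Smpdl3b, Fzd5 to Kdelc1 (0.874) and Sox5os4, Fzd6 to Tsr1 (0.851), Chst12 and Pdia6, Fzd8 to Tshz1 (0.853), Hmgb1-ps6 and Rnd2, and Fzd3 to genes at 0.807 or below.

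Among the partners of Frizzled in aorta, the co-receptor list had 8 of 11 genes tested and 1 of them fell on HFD averaged over genotypes, the one call among 60 partner genes tested (1.67%, against 3.95% of all genes). This was Tspan12, the tetraspanin that helps Fzd4 to bind norrin, at -2.05 (SE 0.499, adjusted p = 0.0324, edgeR). Its level was 48.45, 31.89, 27.59 and 10.59 FPM in the 4 libraries rich in adipocyte transcripts and 2.599 to 7.611 FPM in the other 10 aortae. Without the 4 libraries its direction turned, at 0.70 (adjusted p = 0.844). Reck, a membrane protein that takes part in Wnt7 reception and the most abundant of the list at 15.6 FPM per kb, had 0.36 (adjusted p = 0.0973), and 0.09 without them.

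Of the Wnt ligands 9 of 19 were tested in aorta and 0 called. Wnt5a was the most abundant at 5.93 FPM per kb and had 0.07 (adjusted p = 0.819), and the smallest p-values belonged to Wnt16 at 0.43 (adjusted p = 0.0663) and Wnt9a at 0.32 (adjusted p = 0.150). Wls, which carries Wnts to the surface, had 0.07 (adjusted p = 0.769). Of the secreted antagonists 9 of 13 were tested and 0 called: Sost, which blocks Lrp5 and Lrp6 and stood at 248 FPM per kb, had 0.52 (adjusted p = 0.158), Dkk3 had 0.44 (adjusted p = 0.113) and Sfrp5, which resembles the Frizzled binding domain, had -2.03 (adjusted p = 0.0938) with its highest level, 8.325 FPM, in WT-SFD 1. Without the 4 libraries Wnt16 had 0.46, Wnt9a 0.22, Sost 0.05, Dkk3 0.13 and Sfrp5 0.06, and Wnt5a and Wls were below 0 at -0.19 and -0.12.

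Genes for turnover of Frizzled at the surface (5 of 9 tested, 0 called) were led by the R-spondin receptor gene Lgr6 at 46.0 FPM per kb, with 0.40 (adjusted p = 0.0562), and Rspo3 had 0.65 (adjusted p = 0.178). Cytoplasmic transducers (10 of 11 tested), beta-catenin target genes (10 of 11) and planar polarity genes (8 of 9) had 0 called in aorta, with medians of 0.04, -0.23 and 0.04 against -0.00 for all genes. At an unadjusted p under 0.05 edgeR had 3 co-receptors, 3 ligands, 5 antagonists, 2 turnover genes, 1 transducer, 2 targets and 0 polarity genes, against 18.8% of all genes. Of these lists, Tcf7l1, a TCF factor that acts mostly as a repressor, had 0.30 (adjusted p = 0.0748), Gsk3a 0.14 (adjusted p = 0.318) and the kinase gene Csnk1a1, most abundant at 19.8 FPM per kb, 0.06. The target genes Apcdd1 (-0.66, adjusted p = 0.0988) and Axin2 (-0.60, adjusted p = 0.198) are both feedback inhibitors, and Nkd1, a further one at 13.6 FPM per kb, had 0.22. The polarity genes Prickle2 and Vangl1 had 0.19 and -0.19, and Daam1, most abundant at 9.38 FPM per kb, had 0.06. Without the 4 libraries Lgr6 had 0.19, Rspo3 0.32, Tcf7l1 0.11, Axin2 -0.16, Apcdd1 -0.43 and Nkd1 -0.01.

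In kidney the averaged diet comparison called 1 of the 9 tested members, Fzd3, against 4.62% of all genes (1.62% lower on HFD). DESeq2 also called Fzd3, against 7.33%. Its further call, Fzd9, is not counted, since that gene passed the filter mainly through the SFD libraries in which it is high. Fzd3, a receptor known for axon guidance and planar polarity, fell on HFD at a very low level. It gave 2.331, 1.131, 1.747 and 1.165 FPM in WT-SFD and 1.481, 0.9695, 0.9094 and 0.9079 FPM in WT-HFD kidneys, which overlapped. In KO it gave 1.784, 1.509, 1.329 and 1.857 FPM on SFD and 0.9222, 1.081, 0.6964 and 0.9050 FPM on HFD, without overlap. The averaged log2 fold change was -0.70 (SE 0.190, 95% confidence interval -1.10 to -0.29, adjusted p = 0.0464, edgeR), and it was -0.57 (adjusted p = 0.582) in WT and -0.82 (SE 0.276, adjusted p = 0.147) in KO alone. These values rest on 11 to 51 counts per library, and the call was lost in 12 of the 16 fits that left out 1 library (-0.81 to -0.59, adjusted p from 0.0305 to 0.0950).

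Fzd9, a relative of Fzd4 with fewer counts still, passed the filter in kidney mainly through the SFD libraries, in which it is high, so its values are a description and add nothing to the counts of members. The averaged diet difference was -1.40 (SE 0.447, adjusted p = 0.0913, edgeR). It had 23, 13, 13 and 4 counts in WT-SFD, 10, 1, 3 and 5 in WT-HFD, 34, 18, 12 and 17 in KO-SFD and 11, 14, 0 and 5 in KO-HFD kidneys. In FPM, KO-SFD (1.639, 0.9700, 0.6135 and 0.9286) lay above KO-HFD (0.5967, 0.6056, 0 and 0.2514) without overlap, whereas WT-SFD (1.247, 0.8167, 0.4454 and 0.1793) overlapped with WT-HFD (0.4627, 0.05103, 0.1705 and 0.2389). The log2 fold change was -1.37 (adjusted p = 0.668) in WT and -1.42 (SE 0.569, adjusted p = 0.227) in KO. Diet values of Fzd9 are not compared between kidney and aorta, where it was too low for the test, and a difference between the separate fits was not tested.

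Fzd7 and Fzd8 had the highest diet values of the family in KO kidney. Fzd7 gave 26.18, 18.81, 28.78 and 27.37 FPM in KO-SFD and 32.82, 31.15, 44.57 and 34.34 FPM in KO-HFD kidneys, without overlap, a log2 fold change of 0.49 (SE 0.138, adjusted p = 0.0749, edgeR). Fzd8 gave 32.74, 27.48, 27.20 and 34.47 FPM in KO-SFD and 38.84, 33.79, 46.66 and 41.68 FPM in KO-HFD kidneys, with KO-HFD 2 (33.79 FPM) inside the SFD range, and a log2 fold change of 0.40 (SE 0.111, adjusted p = 0.0754). Over the alternative settings that left no single library out, the KO value ran from 0.23 to 0.50 for Fzd7 and from 0.17 to 0.40 for Fzd8. With 1 library left out it ran from 0.38, without KO-SFD 2, to 0.56 for Fzd7, and from 0.33 to 0.46 for Fzd8. In WT, Fzd7 (35.40, 30.78, 28.85 and 35.50 FPM on SFD, 35.86, 30.67, 37.57 and 34.45 FPM on HFD) had 0.09 (adjusted p = 0.975) and Fzd8 (37.73, 35.56, 36.32 and 45.01 FPM on SFD, 36.74, 38.01, 37.34 and 38.51 FPM on HFD) had -0.04 (adjusted p = 0.992). The WT diets overlapped for both genes. The interaction (0 of 9 called and 0% of all genes, 1 of 9 with an unadjusted p under 0.05 against 3.35%, 0 by DESeq2 against 0.00665%) was 0.44 for Fzd8 (unadjusted p = 0.0128, adjusted p = 1.00) and 0.41 for Fzd7 (unadjusted p = 0.0507, adjusted p = 1.00), so that the difference between genotypes did not pass for either.

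Over the family, 0 of 9 members were called in KO kidney by edgeR against 2.39% of all genes, and 0 of 9 in WT kidney against 0.964%. With Fzd9 left aside, Fzd3, Fzd7 and Fzd8 had an unadjusted p under 0.05 in KO by edgeR, against 16.1% of all genes. In WT 1 member did so (8.05%). DESeq2 called 2 in KO, Fzd7 and Fzd8, against 4.62% of all genes, and 0 in WT against 1.75%. In KO, Fzd7 was the member with HFD libraries all above SFD libraries (5.02% of all genes), and Fzd3 was the member with all below (3.85%), leaving Fzd9 aside. Averaged over genotypes Fzd7 had 0.29 (SE 0.0968, adjusted p = 0.105) and Fzd8 0.18 (adjusted p = 0.227), and Fzd1, Fzd2, Fzd4, Fzd5 and Fzd6 lay between -0.16 and 0.07.

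**Figure D5:**
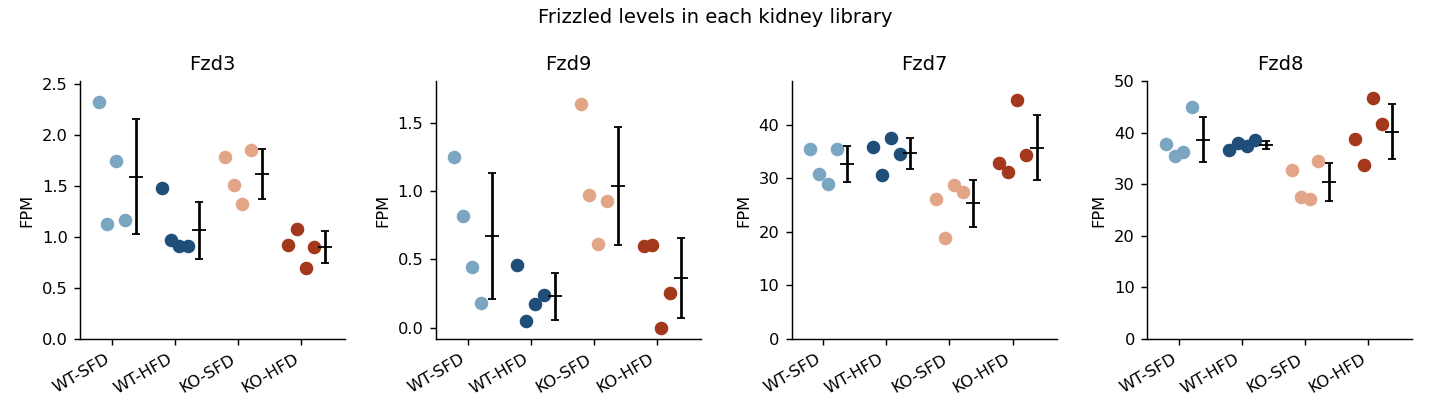
Level (FPM) of Fzd3, Fzd9, Fzd7 and Fzd8 in each of 16 kidney libraries by group; black marks give the mean and SD of 4 libraries. KO-HFD lies below KO-SFD without overlap for Fzd3 (0.6964 to 1.081 against 1.329 to 1.857 FPM) and Fzd9, and above it for Fzd7 (31.15 to 44.57 against 18.81 to 28.78 FPM).

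The KO against WT comparison in kidney touches tissue in which only the smooth muscle of vessels was targeted. On SFD 0 of 9 members were called against 0.0133% of all genes (2 with an unadjusted p under 0.05 against 8.69%, 0 by DESeq2 against 0.173%), but Fzd7 (-0.37, unadjusted p = 0.0168, adjusted p = 0.507, edgeR) and Fzd8 (-0.34, unadjusted p = 0.00682, adjusted p = 0.444) had every KO library below every WT library, against 2.09% of all genes. The KO-SFD libraries that give these values also serve as the control of the KO diet comparison, so both comparisons share them. Without KO-SFD 2, the lowest of them in Fzd7, the Fzd7 value was -0.25. On HFD the members ran from -0.23 to 0.69, with 0 of 9 called and 0% of all genes, 0 with an unadjusted p under 0.05 against 1.75%, and 0 by DESeq2 against 0.00665%.

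Among the abundant members, Fzd1, Fzd4 and Fzd5 were low in the same pair of kidneys. Fzd1 was lowest of its group in WT-SFD 2 (90.97 FPM, the others 121.6 to 159.4) and in KO-SFD 2 (89.83 FPM, the others 120.3 to 127.3). The same kidneys were lowest of their groups in Fzd4 (37.00 and 28.83 FPM) and Fzd5 (16.65 and 17.68 FPM). In Fzd7 only KO-SFD 2 of the pair was lowest of its group (18.81 FPM). Over 16 kidneys Fzd4 and Fzd5 had a correlation of 0.82, which was 0.65 without these kidneys, and Fzd1 and Fzd5 had 0.79, which was 0.43 without them. Fzd1 had 113.6 to 134.8 FPM in KO-HFD and 120.2 to 140.3 FPM in WT-HFD kidneys. Fzd2 (7.332 to 12.14 FPM) and Fzd6 (18.00 to 29.87 FPM) overlapped between all groups, and Fzd10 had between 0 and 10 counts per library.

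Fzd3 and Fzd9 ran together over the 16 kidneys (r = 0.77), and Fzd7 and Fzd8 did so apart from them (0.81 with each other, and -0.65 between Fzd8 and Fzd9). Cell markers varied along with them. The mean of the podocyte markers correlated with Fzd7 at 0.81, with Fzd8 and also Fzd1 at 0.72, and with Fzd9 at -0.49. With Fzd9 the endothelial mean had 0.62, the Schwann cell mean 0.56 and the collecting duct mean 0.54. The mean of the proximal tubule markers correlated with Fzd9 at -0.85, with Fzd3 at -0.68, with Fzd7 at 0.77 and with Fzd8 at 0.79, and it was 10.92 log2 CPM, its highest, in KO-HFD 3, the kidney with 0 counts of Fzd9 and the highest Fzd7 and Fzd8. All 6 markers of the proximal tubule list had counts in every kidney, and of these Slc5a2, the glucose transporter of the tubule, rose on HFD (1.37, adjusted p = 1.9e-05, edgeR). All 5 of the loop and distal tubule list did as well, with Umod the most abundant at 2543 to 5688 FPM, and of these Pvalb, a calcium-binding protein (1.23, adjusted p = 3.9e-04), and Slc12a3, the thiazide-sensitive transporter (0.40, adjusted p = 0.0310), rose. All 6 of the collecting duct list (median -0.20, Aqp2 the most abundant at 434.1 to 1513 FPM) and all 5 of the podocyte list were also counted in every kidney, with 0 called averaged over genotypes. Of the adipocyte list 19 of 20 were tested in kidney, and Lep rose (3.97, adjusted p = 0.00128) while Cfd (-3.86, adjusted p = 0.00843), Lpl (-1.07, adjusted p = 0.00231) and Pnpla2 (-0.42, adjusted p = 0.0268) fell, but the mean of the list had correlations of 0.27 with Fzd9, 0.14 with Fzd3, -0.14 with Fzd7 and 0.03 with Fzd8. With the proximal tubule mean as a covariate, chosen after seeing the data, the averaged diet differences were -0.51 for Fzd3 (adjusted p = 0.248), -0.60 for Fzd9 (adjusted p = 0.533), 0.12 for Fzd7 and 0.03 for Fzd8. These libraries share their source organ and depth range, and the marker mean holds Slc5a2, which itself moved with diet.

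The tested genes most like Fzd9 over 16 kidneys were Catsper4 (r = 0.966), a sperm calcium channel gene at 0.7219 FPM, Ajuba (0.949), a LIM domain protein, and Fam129b (0.926). Fzd3 was closest to Leprot and Rassf6 (0.847 each) and Strip2 (0.843), Fzd7 to Rhobtb1 (0.932), Mapre2 and Spred2, and Fzd8 to Fam171a1 (0.900), Etfdh and Abhd3. Fzd1 was closest to Pank3 (0.926), Fzd4 to Gm5903 (0.970), Fzd5 to Plekha6 (0.918), Fzd6 to Ccnjl (0.850) and Fzd2 to Lrrc17 (0.717).

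Of the partner genes, 2 of 67 tested (2.99%) were called in kidney averaged over genotypes, against 4.62% of all genes, both secreted antagonists. Sostdc1, an inhibitor that binds Lrp co-receptors and was the most abundant antagonist at 52.9 FPM per kb, fell on HFD by 0.54 on the log2 scale averaged over genotypes (SE 0.109, adjusted p = 0.00720, edgeR). In WT its level was 96.06, 113.7, 135.5 and 78.45 FPM on SFD and 73.52, 86.18, 83.33 and 84.39 FPM on HFD, which overlapped, with -0.37 (adjusted p = 0.505). In KO it was 118.3, 116.9, 112.6 and 121.3 FPM on SFD and 76.27, 87.51, 51.72 and 71.90 FPM on HFD, without overlap, with -0.70 (adjusted p = 0.0204). Sfrp5 rose by 1.18 (SE 0.283, adjusted p = 0.0231), from 0.6167 to 0.9414 FPM in WT-SFD to 0.9717 to 3.572 FPM in WT-HFD kidneys. In KO it ran from 1.350 to 1.617 FPM on SFD and from 1.193 to 4.305 FPM on HFD, which overlapped, and neither genotype alone was called (adjusted p = 0.127 in WT and 0.303 in KO, edgeR). Of the antagonist list 11 of 13 genes were tested, with 1 higher and 1 lower.

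The Wnt ligands (11 of 19 tested) had 0 called in kidney. Wnt7b, made in the collecting duct and most abundant at 5.22 FPM per kb, had -0.79 (adjusted p = 0.273) and Wnt4, needed for nephron formation, -1.05 (adjusted p = 0.302). Both varied widely within groups: Wnt7b ran from 4.115 FPM in KO-HFD 3 to 55.16 FPM in KO-SFD 1. Fzd9 was 0 in the former and at its highest, 1.639 FPM, in the latter, and over 16 kidneys its correlation was 0.91 with Wnt7b and 0.88 with Wnt4.

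Co-receptors (8 of 11 tested), turnover genes (7 of 9), transducers (10 of 11), beta-catenin targets (11 of 11) and polarity genes (8 of 9) had 0 called in kidney, with medians of -0.03, -0.02, 0.00, -0.00 and 0.24 against -0.01 for all genes. At an unadjusted p under 0.05 edgeR had 2 co-receptors, 1 ligand, 3 antagonists, 2 turnover genes, 1 transducer, 0 targets and 1 polarity gene, against 18.2% of all genes. Tspan12 had -0.36 (adjusted p = 0.0827), Ror1, a receptor kinase for Wnt5a, 0.35 (adjusted p = 0.262), and Lrp6, the most abundant co-receptor at 10.3 FPM per kb, -0.08. Lgr4, which keeps Frizzled at the surface with R-spondin, had -0.19 (adjusted p = 0.222) at 25.6 FPM per kb, and Lgr5 -0.79 (adjusted p = 0.139). The polarity gene Prickle1 had 0.39 (adjusted p = 0.0653), Vangl2 0.22 and Celsr2 0.26. Dvl1 (45.3 FPM per kb) had 0.04, Csnk1a1 0.17 (adjusted p = 0.134) and Axin1 -0.10, and of the targets Ccnd1 (30.0 FPM per kb) had 0.11, Apcdd1 -0.49 and Cd44 0.52. Wls had 0.13 (adjusted p = 0.283).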

How the data were processed

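RNA was ribosome-depleted and sequenced from 14 aortae and 16 kidneys. Per the labels and methods, the authors trimmed reads with cutadapt, aligned them to mm10 with TopHat and obtained gene counts with featureCounts. The deposited values are raw counts, unfiltered and not normalized. Gene annotation came from BiomaRt. The strand setting and the treatment of reads that map to several places were not given in the sources used here, and deeper libraries fix low genes more firmly. Samples were grouped by the labels' genotype, diet and tissue, and no label gives litter or extraction. The study describes 4 animals per aorta group, and 3 SFD libraries per genotype were used here.

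Each tissue was fitted with edgeR 4.0.16 (R 4.3.3, filterByExpr, TMM, quasi-likelihood F test, all groups, Benjamini-Hochberg over all genes, called at adjusted p under 0.05). The fit was tested on simulated data for the averaged diet comparison, where 91.0% (aorta, 14796 genes) and 98.0% (kidney, 15034 genes) of genes changed by 1 on the log2 scale were called, and 28.0% and 50.0% of those changed by 0.5. Unchanged genes called were 9 in aorta and 7 in kidney. The changed genes had mean counts above a limit that Fzd3, Fzd9 and Fzd10 did not reach, so these rates do not cover those members. The simulated libraries did not include the excess of adipocyte transcripts in 4 aortae. Log2 CPM used a prior count of 2. Exons and positions came from GENCODE, promoters from RefSeq. Alternatives were library totals, other size factors, no filter, DESeq2 1.42.0, edgeR's older dispersion method, the compared groups alone, marker covariates, libraries left out and longest transcripts. The members and all gene lists were chosen with earlier results of these data known, and the study drew Wnt genes from these libraries. All members were named, and other Wnt genes where called, among the 2 smallest p of their list, or most abundant; the 3 most alike genes by correlation are the closest named.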

Additional observations from a re-analysis of the deposited data

Results flagged for a closer look

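Single libraries that lay far from the rest of their group of 4 were found in 4 of 59 sets of a Frizzled gene and a group, and chance alone flags about 1 in 20. That rate is for values that vary smoothly. A library with counts among libraries at 0 is always flagged, as in both Fzd10 sets below. The SFD aorta groups were too small for the rule and were not checked. Fzd3 stood at 6.331 FPM in the aorta library WT-HFD 2, where the nearest library had 3.128 FPM, and the SD of the group was 1.727 FPM. Fzd3 also stood at 1.481 FPM in the kidney library WT-HFD 1, with the nearest library at 0.9695 FPM. When that kidney was left out, the averaged diet difference of Fzd3 was -0.81 on the log2 scale. Fzd10 stood at 0.1005 FPM in the same aorta, which was 1 count against 0 in the other WT-HFD aortae, and at 0.4340 FPM in kidney library KO-HFD 1, which was 8 counts against 0 in the other KO-HFD kidneys. No Frizzled gene passed the test of the difference between WT and KO in the response to diet in either tissue.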

How the results depend on the processing

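No paired analysis was possible because the replicate numbers only follow the order of deposition and pair no animals. The number of Frizzled genes called was the same in 98 of 106 values from settings that left no single library out. Most of these were counts of 0, many of them in comparisons where edgeR called few or no genes at all, so an unchanged 0 says little. The only count above 0 in the main fit, in kidney averaged over genotypes, changed in most of its settings. The 8 values that changed were these. With DESeq2, 2 were called in WT aorta (Fzd1 at 0.51 and Fzd2 at 0.68), 2 in aorta averaged over genotypes (Fzd2 at 0.49 and Fzd8 at 0.47), 2 in KO kidney (Fzd7 at 0.49 and Fzd8 at 0.39) and 2 in kidney averaged over genotypes (Fzd3 and Fzd9, the latter at -1.50 and not read as a further call, since it passed the filter mainly through the SFD kidneys in which it is high). The averaged kidney count was 0 with library totals (Fzd3 at -0.69, adjusted p = 0.0839, edgeR), 0 without the filter (-0.70, adjusted p = 0.0687), and, chosen after seeing the data, 0 with the proximal tubule covariate (-0.51, adjusted p = 0.248) and 0 without the kidneys WT-SFD 2 and KO-SFD 2 (-0.76, adjusted p = 0.0552). The cause was not tested.

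In these settings 55 of 899 fold changes of the members changed sign, all of them of values no larger than 0.21 in size. Tspan12, called in aorta averaged over genotypes at -2.05, was 0.70 without the 4 libraries rich in adipocyte transcripts, a setting applied to the partner genes after seeing the data. Sfrp5, Wnt5a, Wls, Nkd1 and Csnk1a1 also changed sign there, as did several partner genes not named for aorta. Among the Frizzled values given, Fzd5 between diets was -0.06 in WT aorta and -0.07 in KO aorta with the adipocyte covariate, -0.05 in both without the 4 libraries, and -0.06 in KO aorta with library totals. Fzd4 in WT aorta was 0.01 with library totals, and Fzd1 in KO aorta was -0.02 with library totals and -0.15 with the adipocyte covariate. Library totals moved the median of all genes by 0.100 in WT aorta, by -0.110 in KO aorta and by 0.268 between KO and WT aortae on SFD. Over all genes DESeq2 called 666 in WT aorta, where edgeR called 0 and library totals called 312.

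With 1 library left out, the count ranged from 0 to 2 in WT aorta, from 0 to 4 in aorta averaged over genotypes (4 without WT-SFD 3 and 3 without KO-SFD 3, in each case with Fzd9, which passed the filter there through the HFD libraries in which it is high and is not read as a further call), from 0 to 1 in KO kidney (Fzd8 at 0.46 without KO-HFD 2) and from 0 to 2 in kidney averaged over genotypes (Fzd3 and, with the same limit, Fzd9 without WT-SFD 4). Fzd4 in WT aorta ranged from -0.24 to 0.05, Fzd5 in WT aorta from -0.08 to 0.19, Fzd5 in KO aorta from -0.02 to 0.09, and Fzd8 in WT kidney from -0.08 to 0.04. The share of Fzd7 in aorta stayed between 28.7% and 29.2% and that of Fzd1 in kidney between 47.3% and 47.9%. Depth limits Fzd9, Fzd10 and Fzd3 most.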
